A study of Mus musculus with 6 samples.

Results

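The 10 genes described here encode the 3 TGF-beta ligands (Tgfb1, Tgfb2 and Tgfb3), their 3 receptors (Tgfbr1, Tgfbr2 and Tgfbr3) and the Smad proteins Smad2, Smad3, Smad4 and Smad7. They were chosen by symbol from the 39179 gene identifiers of the deposited files, and all 10 were found. RNA-seq had been made of tumour grafts in mice of the inbred strain FVB. The grafted cells came from MMTV-Neu mammary tumours, in which a mouse mammary tumour virus promoter drives the Neu (ErbB2) oncogene in mammary epithelium, and both groups share that oncogene. In 3 libraries the grafted cells were labelled AXL KO, deficient for the receptor tyrosine kinase Axl, and in 3 they were labelled WT. The labels give no age, no deleted part of Axl, no cell line or clone and no batch, and they do not tie the grafts to individual mice, so each p-value reflects the variation among these libraries alone, some or all of which may be technical. Any difference below may also reflect the line of the grafted cells, which cannot be told apart from AXL.

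The TGF-beta ligands are secreted as latent complexes, in which the propeptide holds the mature dimer and latent TGF-beta binding proteins tie it to the matrix until integrins or proteases release it. The active ligand is bound by the type II receptor Tgfbr2, which phosphorylates the type I receptor Tgfbr1, while the large coreceptor Tgfbr3 (betaglycan) presents ligand, TGF-beta 2 above all. Tgfbr1 phosphorylates Smad2 and Smad3, which enter the nucleus with the common partner Smad4 and bind target genes. One of these targets is Smad7, an inhibitor that binds the activated receptor and closes the loop. In mammary tumours the pathway is known both for growth arrest of epithelium and for promoting mesenchymal change, matrix production and suppression of lymphocytes.

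Library depth was 28808499 to 32491807 counts in genes in the libraries labelled AXL KO and 26541009 to 29977133 in those labelled WT. Axl itself (GRCm38 chromosome 7, 25757273 to 25788705) had 1360, 2396 and 1767 counts in the libraries labelled AXL KO, against 1906, 1761 and 1507 in those labelled WT. The groups overlapped, with a log2 fold change of -0.01 (95% interval -0.37 to 0.36, edgeR quasi-likelihood test, adjusted p = 0.978). Reads were counted over all exons of Axl, the deleted part is not given, and reads of host cells in the graft were not set apart. Axl therefore did not check the genotype, and all directions are between libraries as labelled. Epithelial genes marked both groups as epithelial tumours, with Epcam at 1387 CPM (counts scaled to library size) in the libraries labelled AXL KO and 1997 CPM in those labelled WT, on average. A graft also holds host cells, and in such bulk samples fewer cells of a type and less RNA per cell cannot be told apart.

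Promoters of the ligand genes Tgfb1 and Tgfb2 are shown first because Tgfb1 differed between the groups and Tgfb2 did not pass the test. Sequences are the 250 bases before the start of the gene from RefSeq on GRCm38.p6, 5′ to 3′ along the gene. Capitals mark GC boxes (GGGCGG on either strand), the binding site of Sp1-type factors, and the TATA element (TATAAA on either strand), where the basal machinery binds. The Tgfb1 window is chr7:25686752-25687001 on the plus strand and the Tgfb2 window is chr1:186705990-186706239 on the minus strand.
Tgfb1: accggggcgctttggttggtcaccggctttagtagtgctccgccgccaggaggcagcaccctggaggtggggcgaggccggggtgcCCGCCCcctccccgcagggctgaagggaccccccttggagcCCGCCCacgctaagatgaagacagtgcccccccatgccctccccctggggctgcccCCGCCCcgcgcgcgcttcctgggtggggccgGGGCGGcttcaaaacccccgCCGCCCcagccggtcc
Tgfb2: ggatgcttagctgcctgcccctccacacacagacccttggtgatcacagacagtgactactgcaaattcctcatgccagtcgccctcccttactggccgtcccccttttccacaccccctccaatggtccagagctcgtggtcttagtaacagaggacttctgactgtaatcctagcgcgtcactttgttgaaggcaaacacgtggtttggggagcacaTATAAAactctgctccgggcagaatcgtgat
The Tgfb1 window held 5 GC boxes and no TATA element, and 75.2% of its bases were G or C, more than in 96.1% of 32841 promoter windows of the same length. The Tgfb2 window held no GC box and 1 TATA element 31 bases before the start, with a G and C share of 53.6%. Of all windows 32.7% held a GC box and 12.4% a TATA element. The Tgfb2 window also held 2 matches to the Smad-binding letters CAGAC (either strand, in 42.2% of all windows) and 1 to the E-box CACGTG (in 6.02%), and the Tgfb1 window held neither. These are letter matches only. Windows were also searched for the other members with an entry, and Tgfbr1 and Smad3 held 2 GC boxes each (Tgfbr1 at the first of its annotated starts), while Tgfbr2 held none. A match to the AP-1 letters TGANTCA (6.75% of all windows) or to the core of the interferon-stimulated response element (2.98%) was found in none of the windows of these 5 genes.

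Lower levels in AXL KO were found for 3 of the 10 genes, namely the ligand gene Tgfb1, the coreceptor gene Tgfbr3 and the inhibitor gene Smad7, and 0 were higher (edgeR, p under 0.05 after Benjamini-Hochberg adjustment). All 10 passed the filter on low counts, and the lowest count of any of them in any library was 415. At an unadjusted p under 0.05 the counts were also 3 lower and 0 higher, and DESeq2 and limma-voom likewise called 0 higher. Across all 14850 genes tested, 37.4% were called, 19.1% higher and 18.3% lower, so the 3 of 10 lie near the background share. Their median log2 fold change was 0.00, as was that of all genes tested. The groups did not overlap for 5 of the 10 genes, against 52.1% of all genes tested.

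**Figure D1:**
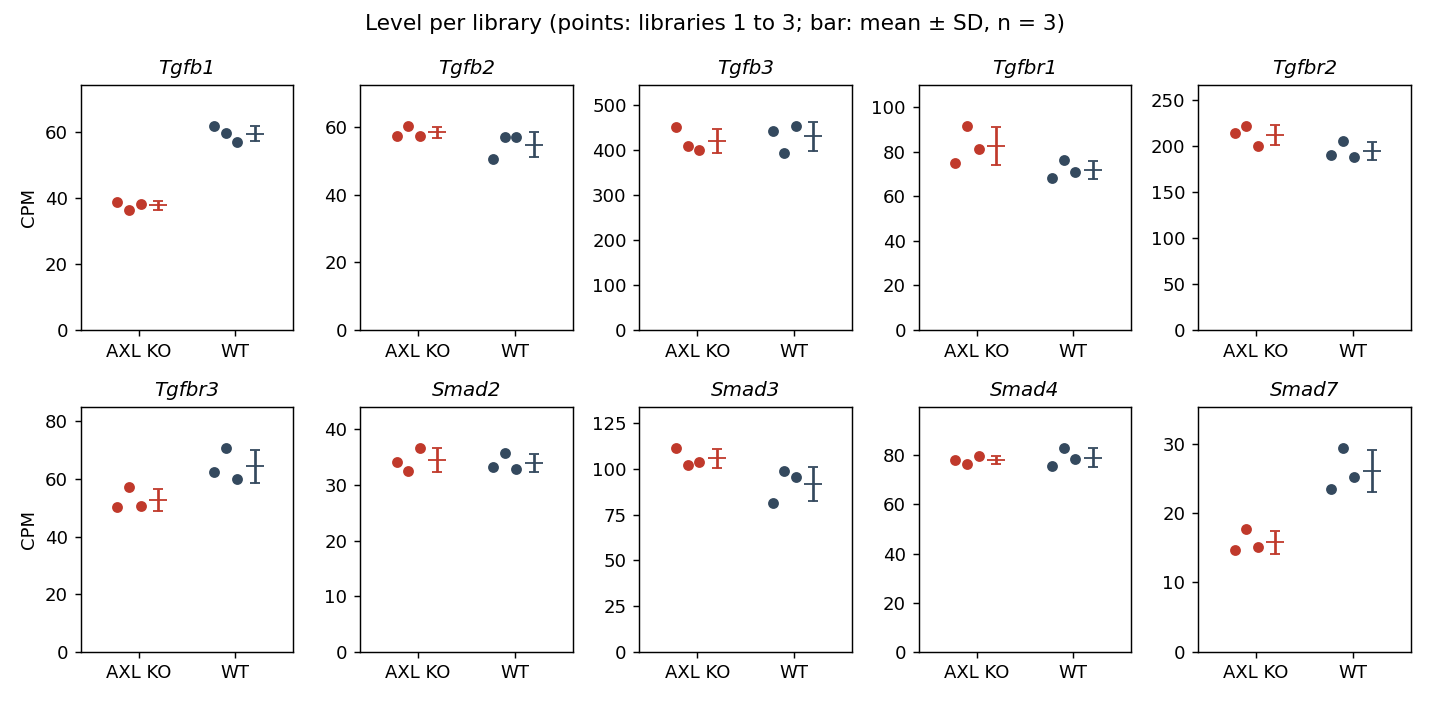
Level of each gene in CPM (vertical axes, from 0) in each library labelled AXL KO (left, red) and WT (right, blue), with mean and SD of 3 libraries. Tgfb1, Tgfbr3 and Smad7 lay lower in all 3 libraries labelled AXL KO than in any labelled WT.

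Among the ligands, Tgfb1 was lower in AXL KO. TGF-beta 1 is the ligand most often found in leukocytes, platelets and tumour stroma. Tgfb1 (ENSMUSG00000002603, GRCm38 chromosome 7, 25687002 to 25705077, plus strand) had 1098, 1174 and 1166 counts in the libraries labelled AXL KO, against 1684, 1799 and 1638 in those labelled WT. Scaled by library, these were 38.9, 36.3 and 38.3 CPM in AXL KO and 62.0, 59.8 and 57.1 CPM in WT. Every library labelled AXL KO lay well below every library labelled WT, and replicates of a group were close together. The mean was 37.8 ± 1.37 CPM in AXL KO and 59.6 ± 2.43 CPM in WT (SD, n = 3 each), a log2 fold change of -0.66 ± 0.07 (SE) or 1.58-fold lower in AXL KO (edgeR adjusted p = 0.000287). The size of this change was larger than that of 80.7% of tested genes. Over every other setting and left-out library the log2 fold change lay between -0.69 and -0.63, and the call held. The authors' deposited table, with its sign turned round to AXL KO over WT, gives -0.66 with an adjusted p of 1.36e-10.

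The other ligand genes did not pass the test. Tgfb2, the ligand that depends most on betaglycan, had 57.5, 60.4 and 57.5 CPM in the libraries labelled AXL KO, against 50.5, 57.0 and 57.1 CPM in those labelled WT. The groups did not overlap but lay side by side, and the log2 fold change was 0.09 (95% interval -0.09 to 0.27, edgeR adjusted p = 0.387), or 0.04 without WT replicate 1, the lowest library. Tgfb3, the third ligand, known in mammary gland from involution after lactation, had 452, 409 and 401 CPM in AXL KO, against 443, 393 and 454 CPM in WT. The groups overlapped over nearly their whole range, with a log2 fold change of -0.03 (95% interval -0.22 to 0.16, edgeR adjusted p = 0.789). Both intervals leave out a fall as large as the one seen for Tgfb1.

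Per length of exon, Tgfb3 was the most abundant of the 10 genes in both groups. Its level was 124 CPM per kb of exon in the libraries labelled AXL KO and 127 in those labelled WT, while the next gene, Tgfbr2, had 25.8 CPM per kb in AXL KO and 23.7 in WT. Tgfb1 had 7.50 CPM per kb in AXL KO and 11.8 in WT, and Tgfb2 had 10.1 in AXL KO and 9.48 in WT. Of the 3 ligands together, on this per-length scale, Tgfb3 therefore made up 87.6% in AXL KO and 85.6% in WT. The Tgfb1 share was 5.10%, 5.19% and 5.58% in the libraries labelled AXL KO, against 8.09%, 8.59% and 7.29% in those labelled WT, and the groups did not overlap. That share had an exact two-sided permutation p of 0.1, the smallest that 3 against 3 libraries can give, and 0.2 when adjusted over the 4 ratios tested. The union of annotated Tgfb1 exons is 5042 bases and its longest transcript 2573, so the level of Tgfb1 depends on the length used. With the longest transcript its share was 9.78% in AXL KO and 14.4% in WT.

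**Figure D2:**
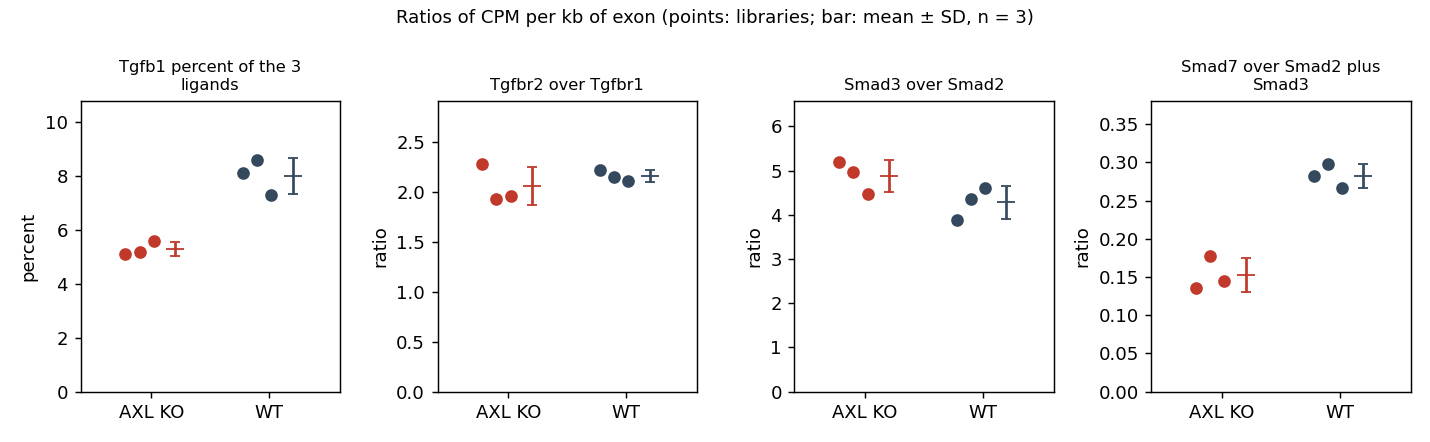
Ratios between genes on the scale of CPM per kb of exon (vertical axes, from 0) for each library labelled AXL KO (left, red) and WT (right, blue), with mean and SD of 3 libraries. The Tgfb1 share of the ligands and the ratio of Smad7 to Smad2 plus Smad3 lay lower in all 3 libraries labelled AXL KO, and the other ratios overlapped.

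The signalling receptors did not pass the test, and the coreceptor gene did by a narrow margin. Tgfbr1, the type I receptor kinase, had 74.8, 91.7 and 81.2 CPM in the libraries labelled AXL KO, against 68.4, 76.4 and 71.1 CPM in those labelled WT. Its groups overlapped, with a log2 fold change of 0.20 (95% interval -0.01 to 0.41, edgeR adjusted p = 0.123), or 0.12 without AXL KO replicate 2, the highest library. Tgfbr2, the ligand-binding type II kinase, had 214, 222 and 200 CPM in AXL KO, against 190, 205 and 188 CPM in WT. Here too the groups overlapped, with a log2 fold change of 0.12 (95% interval -0.05 to 0.29, edgeR adjusted p = 0.223). The ratio of Tgfbr2 to Tgfbr1, per length, was 2.06 ± 0.19 in AXL KO and 2.16 ± 0.06 in WT (SD, n = 3 each, exact permutation p = 0.4, adjusted 0.4).

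Tgfbr3 (ENSMUSG00000029287, chromosome 5, 107106570 to 107289629) had 50.2, 57.2 and 50.5 CPM in the libraries labelled AXL KO, against 62.4, 70.9 and 59.97 CPM in those labelled WT. The groups did not overlap, although AXL KO replicate 2 came within a few CPM of the lowest WT library. The log2 fold change was -0.29 ± 0.09 (SE), or 1.22-fold lower in AXL KO (edgeR adjusted p = 0.0353). Its call ended without AXL KO replicate 1 (adjusted p = 0.125), without AXL KO replicate 3 (0.110) and without WT replicate 2 (0.0793), with log2 fold changes of -0.26, -0.27 and -0.23. Of all tested genes 52.3% had a smaller change.

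Among the Smads, the genes of the proteins that carry the signal did not pass the test. Smad2 had 34.1, 32.5 and 36.7 CPM in the libraries labelled AXL KO, against 33.3, 35.8 and 32.8 CPM in those labelled WT, a log2 fold change of 0.02 (95% interval -0.17 to 0.20, edgeR adjusted p = 0.870). Smad4, the common partner, had 78.1, 76.5 and 79.8 CPM in AXL KO, against 75.5, 83.2 and 78.6 CPM in WT, a log2 fold change of -0.02 (95% interval -0.18 to 0.15, edgeR adjusted p = 0.865). For both genes the groups overlapped. Smad3, the DNA-binding carrier, had 112, 102 and 104 CPM in AXL KO, against 81.4, 98.7 and 95.6 CPM in WT. Its groups did not overlap, but the log2 fold change of 0.20 missed the threshold (95% interval -0.00 to 0.41, edgeR adjusted p = 0.107), and it was 0.12 without WT replicate 1, the lowest library. The ratio of Smad3 to Smad2, per length, was 4.88 ± 0.36 in AXL KO and 4.28 ± 0.38 in WT (SD, n = 3 each, exact permutation p = 0.2, adjusted 0.267).

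Smad7, the inhibitory Smad, had the largest fall of the 10 genes. Smad7 (ENSMUSG00000025880, chromosome 18, 75367529 to 75395935) had 415, 574 and 458 counts in the libraries labelled AXL KO, against 640, 887 and 725 in those labelled WT. These were 14.7, 17.7 and 15.0 CPM in AXL KO and 23.5, 29.5 and 25.3 CPM in WT. The groups did not overlap, and within each group replicate 2 was highest. The mean was 15.8 ± 1.66 CPM in AXL KO and 26.1 ± 3.04 CPM in WT (SD, n = 3 each), a log2 fold change of -0.72 ± 0.12 (SE) or 1.65-fold lower in AXL KO (edgeR adjusted p = 0.00193). The call held in every other setting, with log2 fold changes from -0.81 to -0.64. The ratio of Smad7 to Smad2 plus Smad3, per length, was 0.135, 0.178 and 0.145 in AXL KO, against 0.282, 0.298 and 0.266 in WT. The groups did not overlap in this ratio, which was 1.86-fold lower in AXL KO (exact permutation p = 0.1, the smallest possible, adjusted 0.2).

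**Figure D3:**
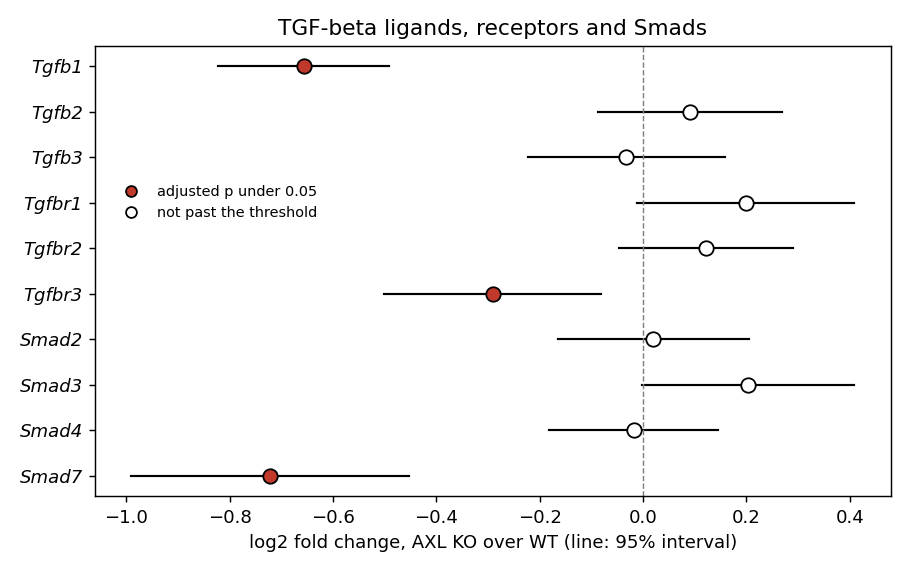
Log2 fold change of the libraries labelled AXL KO over those labelled WT (horizontal axis) with its 95% interval for the 10 genes, filled where the edgeR adjusted p is under 0.05. Tgfb1 and Smad7 lie at -0.66 and -0.72, Tgfbr3 at -0.29, and the intervals of the other genes include 0.

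Some of the smaller differences matched the typical difference of their chromosome. The median log2 fold change over tested genes was 0.20 on chromosome 9, which carries Smad3 and Tgfbr2, 0.28 on chromosome 4, which carries Tgfbr1, and -0.22 on chromosome 12, which carries Tgfb3. Relative to these medians Smad3 lay at 0.00, Tgfbr2 and Tgfbr1 both at -0.08 and Tgfb3 at 0.18. The medians of chromosomes 5, 7 and 18 were 0.01, -0.02 and -0.02, and Tgfbr3, Tgfb1 and Smad7 moved little, to -0.30, -0.64 and -0.70. The part of these chromosome-wide differences in the levels of the 10 genes was not tested.

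Tgfb1 is a close neighbour of the targeted gene. Its annotated end lies 52195 bases from that of Axl, and its start lies 102 kb from the start of Axl, with 2 protein-coding genes starting between them, Ccdc97 and Hnrnpul1. Neither passed the test, with log2 fold changes of 0.03 and 0.05 (edgeR adjusted p = 0.810 and 0.674). Of 29 tested genes starting within 1000 kb of Axl 4 were lower and 1 was higher, together 17.2%, against 37.4% of all genes tested. Tgfb1 had the second largest fall of the 29. The largest was in B3gnt8, a glycosyltransferase gene starting 162 kb from Axl, at 2.81 ± 0.60 CPM in the libraries labelled AXL KO and 5.26 ± 0.63 CPM in those labelled WT (SD, n = 3 each), a log2 fold change of -0.91 ± 0.19 (SE, edgeR adjusted p = 0.00685). Bckdha, which encodes a subunit of the branched-chain keto acid dehydrogenase and starts 130 kb from Axl, was the one higher gene, at 0.25 ± 0.07 (SE, edgeR adjusted p = 0.0299). B9d2, which ends just upstream of the Tgfb1 start, lay at -0.28 and did not pass the test (95% interval -0.68 to 0.12, edgeR adjusted p = 0.247). The labels do not describe the altered Axl allele.

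**Figure D4:**
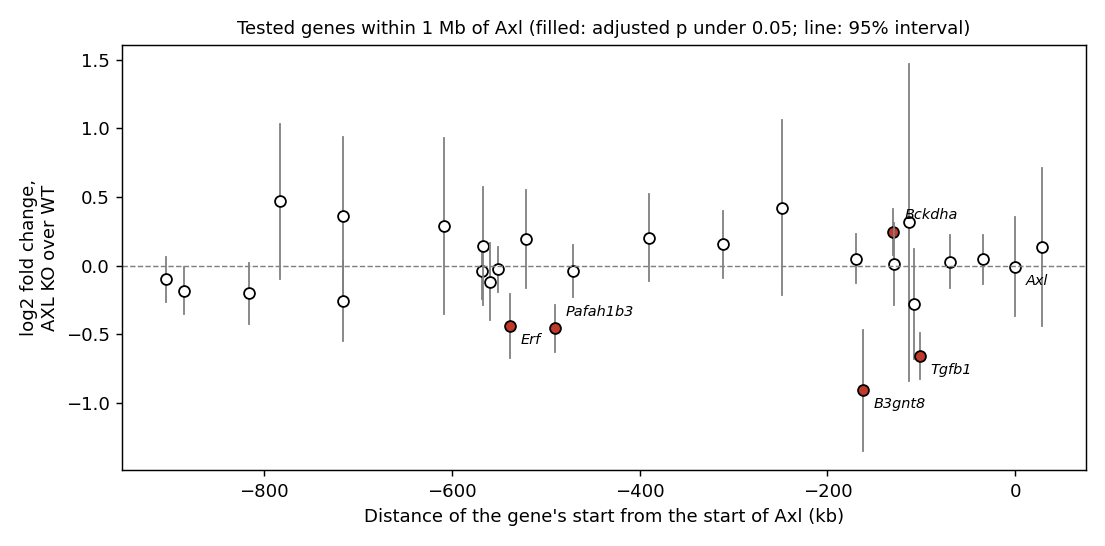
Log2 fold change (vertical axis) of the 29 tested genes starting within 1 Mb of Axl against the distance of their start from that of Axl in kb (horizontal axis), with 95% intervals and filled points at an edgeR adjusted p under 0.05. Tgfb1 lies at -0.66, and its neighbours Ccdc97 and Hnrnpul1 at 0.03 and 0.05.

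Genes that hold the ligands latent or release them went both ways. Of 25 tested genes of this list 7 were lower and 4 higher in the libraries labelled AXL KO, 44% called against 37.4% of all genes, with a median log2 fold change of -0.43 against 0.00 over all genes. Ltbp1, a latent TGF-beta binding protein that anchors the complex in the matrix, had 11.8, 14.3 and 12.8 CPM in AXL KO, against 24.8, 26.5 and 32.5 CPM in WT. Its groups were far apart, at 2.15-fold lower in AXL KO (edgeR adjusted p = 0.000344), and Ltbp4, of the same family, was 1.61-fold lower (edgeR adjusted p = 0.00143). Mmp14, a membrane protease that can free latent TGF-beta, had 29.95, 50.2 and 26.9 CPM in AXL KO, against 109, 109 and 107 CPM in WT, and was 3.04-fold lower (edgeR adjusted p = 0.000538). In contrast Itgb6, the chain of the epithelial integrin that releases TGF-beta 1 and 3, had 15.2, 16.3 and 15.1 CPM in AXL KO, against 9.97, 8.14 and 9.13 CPM in WT. It was 1.71-fold higher (edgeR adjusted p = 0.00112). Outside the naming rule and chosen after their values were seen, the other higher genes were Thbs1 (thrombospondin 1, which can activate the latent complex), Furin (the protease that cuts the propeptide) and Itgb8 (a further activating integrin chain), with log2 fold changes of 0.57, 0.40 and 0.29. Itgav, the partner chain of both integrins, fell by 0.54 on the log2 scale. The lower genes of this list numbered 13 without AXL KO replicate 2 and 4 at an adjusted p under 0.01. Of all 14850 genes tested 2796 and 1464 were lower in these settings.

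Accessory receptors and receptor regulators went both ways. Of 17 tested genes 6 were lower and 2 higher, 47.1% called against 37.4% of all genes, the median log2 fold change being -0.21. Only 1 was higher in 8 of 14 other settings, among them without AXL KO replicate 1 or 3 and without WT replicate 2 or 3. Dab2 was not analysed here because its symbol stands for more than one identifier. Vasn, a membrane protein that binds TGF-beta and dampens it, had 16.8, 19.98 and 16.8 CPM in the libraries labelled AXL KO, against 41.8, 41.0 and 40.3 CPM in those labelled WT. It was 2.30-fold lower with groups far apart (edgeR adjusted p = 4.24e-05). Bambi, a decoy receptor without kinase, was 2.96-fold lower, at 4.41 ± 1.25 CPM in AXL KO and 13.1 ± 2.59 CPM in WT (SD, n = 3 each, edgeR adjusted p = 0.000853). Eng, the endothelial coreceptor endoglin, was 1.56-fold lower (edgeR adjusted p = 0.00243), and Fkbp1a, which keeps the type I receptor inactive, fell by 0.49 on the log2 scale (edgeR adjusted p = 0.00261). Ldlrad4, an inhibitor of the pathway chosen here after its value was seen, was higher, with a log2 fold change of 0.69 (edgeR adjusted p = 0.00458). Endothelial markers moved with Eng, as given below.

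Within the activin and nodal branch, which also signals through Smad2 and Smad3, 2 of 11 tested genes were lower and 0 higher (18.2% called against 37.4% of all genes, of which 18.3% lower, median log2 fold change -0.18), with 3 lower and 0 higher at an unadjusted p under 0.05. DESeq2 and limma-voom also called 0 higher. Fstl3, which captures activin, was 3.31-fold lower, at 4.80 ± 1.71 CPM in the libraries labelled AXL KO and 16.0 ± 3.83 CPM in those labelled WT (SD, n = 3 each, edgeR adjusted p = 0.00126). Acvr1b, the type I activin receptor, fell by 0.40 on the log2 scale (edgeR adjusted p = 0.00974). Without AXL KO replicate 2 there were 5 lower genes in this branch, and 2796 of all 14850 genes tested were lower. Among the Smads of the BMP route, the inhibitory Smad6 was 1.64-fold lower, at 6.35 ± 0.91 CPM in AXL KO and 10.4 ± 0.54 CPM in WT (SD, n = 3 each, edgeR adjusted p = 0.00426). Smad5, a carrier of BMP signals, was higher at a log2 fold change of 0.23 (edgeR adjusted p = 0.0372), a call lost when any one library except WT replicate 2 was left out and under the replicate block, and Smad1 lay at 0.14 (edgeR adjusted p = 0.272). Smad9 was too low to test.

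Few partners and repressors of the Smads were called. Of 19 tested genes 4 were higher and 1 lower (26.3% called against 37.4% of all genes, median log2 fold change 0.04). Ski, a repressor that binds Smad2, Smad3 and Smad4, had 197, 184 and 212 CPM in the libraries labelled AXL KO, against 133, 158 and 144 CPM in those labelled WT, and was 1.36-fold higher (edgeR adjusted p = 0.00456). Rnf111, a ubiquitin ligase that removes Ski and Smad7, had a log2 fold change of 0.56 (edgeR adjusted p = 0.00427), and Runx1, a transcription factor that works with Smads, was 1.67-fold higher (edgeR adjusted p = 0.00371). Tgif1, a repressor in the nuclear Smad complex, was 1.38-fold lower (edgeR adjusted p = 0.00152). Skil, the close relative of Ski that is itself a target, lay at -0.05 (edgeR adjusted p = 0.616).

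**Figure D5:**
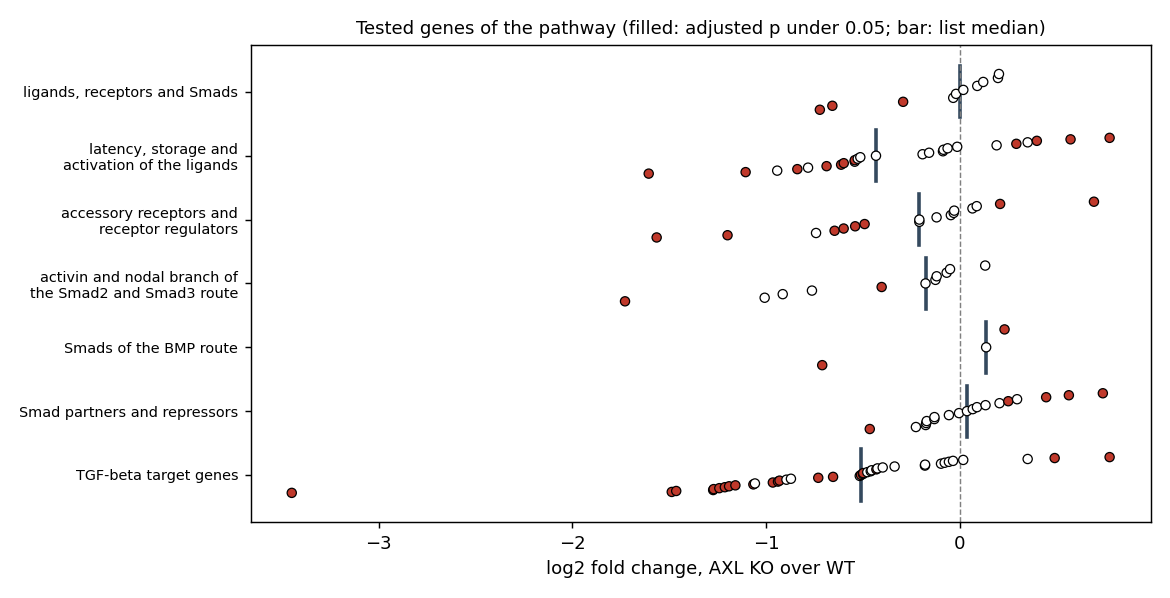
Log2 fold change of the libraries labelled AXL KO over those labelled WT (horizontal axis) for each tested gene of the pathway lists (rows), filled at an edgeR adjusted p under 0.05, with a bar at each list's median. The target genes have a median of -0.51, with 18 lower and 2 higher.

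Genes known as TGF-beta targets were lower more often than higher. The list does not separate genes that TGF-beta raises from genes that it lowers, so its counts do not measure pathway activity. Of 39 tested target genes 18 were lower and 2 higher, 51.3% called against 37.4% of all genes, with a median log2 fold change of -0.51 against 0.00 over all genes. Klf10, an early TGF-beta response gene, had 100, 104 and 84.4 CPM in the libraries labelled AXL KO, against 148, 154 and 153 CPM in those labelled WT, and was 1.57-fold lower (edgeR adjusted p = 0.000813). Id1, a dominant-negative helix-loop-helix factor that BMPs also induce, had 2.09, 3.09 and 2.46 CPM in AXL KO, against 9.16, 6.05 and 6.31 CPM in WT, 2.80-fold lower (edgeR adjusted p = 0.00117). Pthlh, the parathyroid hormone-related peptide gene, had only 3, 11 and 2 counts in AXL KO, against 58, 72 and 38 in WT, with a log2 fold change of -3.45 ± 0.47 (SE, edgeR adjusted p = 0.00078). Itgb6, described above, was one of the higher targets. The other was Tgfbi, named here after its value was seen, at 30.8 CPM in AXL KO and 21.9 CPM in WT on average. Its groups overlapped, with a log2 fold change of 0.49 (edgeR adjusted p = 0.0396). Only 1 target was higher in 6 of 15 other settings, among them without AXL KO replicate 1 or 2 and without WT replicate 2 or 3. Other target genes, chosen after their values were seen, did not pass the test. Pmepa1, a feedback inhibitor, lay at -0.08 (edgeR adjusted p = 0.585), and the matrix genes Col1a1 and Fn1 at -0.45 and -0.52 (edgeR adjusted p = 0.186 and 0.163).

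AXL KO replicate 2 stood apart from the other AXL KO libraries in stromal genes, and the count of lower targets turned on it. Without it 28 of the 39 targets were lower, against 18 with it, and 6 fibroblast markers against 2. Of all 14850 genes tested 2796 were lower without it, against 2717 with it. With all libraries and an adjusted p under 0.01, 12 targets were lower, the lowest count over the settings. At that threshold 1464 of all 14850 genes were lower. Fibroblast markers summed to 1452, 2303 and 1429 CPM in the 3 libraries labelled AXL KO, against 3153, 2116 and 1884 CPM in those labelled WT, and macrophage markers to 821, 1364 and 722 CPM in AXL KO, against 1335, 917 and 932 CPM in WT. Tgfb1 was lowest of all libraries in AXL KO replicate 2, at 36.3 CPM, whose fibroblast and macrophage sums were the highest of AXL KO, and highest in WT replicate 1, at 62.0 CPM, whose sums were the highest of WT. Without the target genes that stand on a marker list, a choice made after seeing the data, 16 of 34 targets were lower and 2 higher (median log2 fold change -0.51). Over all genes tested 18.3% were lower and 19.1% higher.

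Endothelial and pericyte markers were lower together with Tgfb1, Tgfbr3 and Smad7, and most platelet markers were too low to test. Over all genes tested 37.4% were called, 18.3% lower and 19.1% higher. Called shares were 92.9% of tested endothelial, 80% of pericyte and smooth muscle, 81.8% of epithelial, 76.9% of T cell and 66.7% of regulatory T cell markers. They were 33.3% of tested platelet, 15.4% of macrophage and 14.3% of fibroblast markers. Of 14 endothelial markers 13 were lower (median log2 fold change -0.68), with summed levels of 240 to 312 CPM in the libraries labelled AXL KO and 401 to 451 CPM in those labelled WT, and 8 were lower without AXL KO replicate 1. Of 10 pericyte and smooth muscle markers 8 were lower (median -0.98), with sums of 359 to 458 CPM in AXL KO and 596 to 677 CPM in WT, and 5 were lower without AXL KO replicate 1 or replicate 3 and 4 at an adjusted p under 0.01. The pericyte marker Abcc9 went the other way, at 83.9 CPM in AXL KO and 55.3 CPM in WT with overlapping groups (log2 fold change 0.60, edgeR adjusted p = 0.0513), and a higher marker was called in 6 of 14 other settings, DESeq2 and limma-voom among them. Of 10 platelet markers 3 could be tested and 1, Itga2b, was lower, with sums of 4.50 to 8.59 CPM in AXL KO and 8.40 to 13.9 CPM in WT, and Gp9 had no count in AXL KO. Without AXL KO replicate 2 or WT replicate 2, 2 platelet markers were lower. Among genes of mean log2 CPM of at least 2 none was, but that filter leaves out Itga2b, at 2.09 CPM in AXL KO and 3.81 CPM in WT. Of 14 fibroblast markers 2 were lower (median -0.50) and of 13 macrophage markers 1 was higher and 1 lower (median 0.06), or 4 lower without AXL KO replicate 2. Without AXL KO replicate 3 or WT replicate 1, 2 macrophage markers were higher and 0 lower by edgeR. Of 13 T cell markers 10 were higher (median 1.73), with sums of 44.3 to 44.5 CPM in AXL KO and 27.5 to 36.3 CPM in WT. Thy1, also on the fibroblast list and not called, held a large part of these sums, at 17.3 CPM in AXL KO and 21.2 CPM in WT. The called T cell markers were low, Lck being the highest at 5.98 CPM in AXL KO and 1.79 CPM in WT. Their count was 0 among genes of mean log2 CPM of at least 2, a filter that leaves out such low genes and so does not test them. Of 6 regulatory T cell markers 3 could be tested and 2, Ikzf2 and Il2ra, were higher, or 1 without AXL KO replicate 1 or any one WT library. Ikzf2 lay at 12.2 CPM in AXL KO and 6.56 CPM in WT, above Lck in both groups. Tnfrsf18 did not pass the test (log2 fold change 0.01, edgeR adjusted p = 0.962). The defining marker Foxp3 was too low to test, at 0.31 CPM in AXL KO and 0.15 CPM in WT. Of 11 epithelial markers 7 were lower and 2 higher (median -0.44), with sums of 11972 to 14184 CPM in AXL KO and 11986 to 13319 CPM in WT. Most of these sums was Erbb2, at 9203 CPM in AXL KO and 7190 CPM in WT on average. Erbb2 was one of the 2 higher markers (log2 fold change 0.36, edgeR adjusted p = 0.0260), so the sums say little of the other epithelial markers. The part of these cells in the levels of Tgfb1, Tgfbr3 and Smad7 was not tested.

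The genes most like the called members were found by the root-mean-square difference of gene-centred log2 CPM over the 6 libraries. For Tgfb1 they were Lcn2, Rps10-ps2 and Gnl1, at differences of 0.03, 0.04 and 0.04, and 94 of 11473 genes lay within 0.1. For Smad7 they were Gucy1a3, Ptprm and Fam57a, at 0.05, 0.05 and 0.06, with 42 genes within 0.1. For Tgfbr3 they were Hspa4l, Slc25a32 and Tbc1d12, at 0.02, 0.03 and 0.03, with 309 within 0.1. The members that were not called had more, from 414 genes within 0.1 for Tgfbr1 to 1905 for Smad4.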

How the data were processed

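RNA-seq libraries of 6 grafts, grouped by their titles, were used. CASAVA 1.8, TopHat2 2.0.10, HTSeq 0.5.3, DESeq2 1.4.5 and the build GRCm38 are named in the submitters' processing notes; the use of strand is not given in the sources used here, so overlapping and antisense reads cannot be told apart. The authors deposited raw counts per gene for each library. The authors' deposited table holds signal (those counts divided by a size factor per library), log2 fold changes of WT over AXL KO, a standard error and test score, and p-values. Rows that name no gene were left out of library sizes; reads aligned to several places held 25.7% to 29.0% of all entries, those in no gene 4.41% to 6.88%, and ambiguous ones 0.717% to 1.09%. Symbols came from that table and positions from GENCODE M21. Exons of Tgfb1, Smad2, Smad3, Smad4, Smad7, Tgfbr1 and Tgfbr2 overlapped no other annotated gene's exons, and those of Tgfb2, Tgfb3 and Tgfbr3 overlapped only genes that the count files do not list.

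Genes were kept with filterByExpr (minimum count 10, minimum total 15), which left 14850 of 21716 with any count, and the groups were compared by quasi-likelihood in edgeR 4.0.16 (R 4.3.3) after TMM scaling (factors 0.980 to 1.02), with group as the only term, 4 residual degrees of freedom, a biological coefficient of variation of 0.117, with p adjusted by Benjamini-Hochberg over the whole tested table and a threshold of 0.05. The fit was tested on simulated data. CPM were computed from counts with TMM-adjusted library sizes, and fold changes are AXL KO over WT. Ratios were tested with an exact permutation test on the log2 scale, two-sided, which cannot go below p = 0.1. Alternatives were other scalings, DESeq2 1.42.0, limma-voom (limma 3.58.1), other filters, a replicate block, left-out libraries, and an adjusted p of 0.01. The members and lists were chosen with earlier results of these data known. The text names all members and, of each list, some of the up to 4 genes with the smallest p, genes within 200 kb of Axl, and for each called member the 3 genes of mean log2 CPM at least 2 most like it. Any other gene was chosen after its values were seen.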

Additional observations from a re-analysis of the deposited data

How the results depend on the processing

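Among the 10 genes, Tgfb1 and Smad7 kept their direction and call in all 14 other settings and Tgfbr3 its direction, with its call lost in 4: at an adjusted p under 0.01 and in 3 of the fits without one library. The number of lower genes among the 10 ranged from 2 to 3 and the number of higher genes was 0 throughout. Values near 0 changed sign without passing any threshold: Smad2 lay at -0.000728 with upper-quartile factors, and over the left-out libraries between -0.0395 and 0.0604; Smad4 lay between -0.0505 and 0.0096 and Tgfb3 between -0.103 and 2.8e-05 over the left-out libraries; Axl lay at 0.0017 with no filter and between -0.19 and 0.13 over the left-out libraries. Over all genes, 1610 were higher and 1464 lower at an adjusted p under 0.01, and leaving out 1 library gave 1853 to 2699 higher and 1822 to 2796 lower. With the replicate number as a block 2458 genes were higher and 2373 lower, and Tgfb1, Tgfbr3 and Smad7 were called at adjusted p-values of 0.00228, 0.0312 and 0.00250. The labels do not say whether replicate numbers pair the libraries. Deviations from the group means correlated at -0.06, -0.13 and 0.09 for same-numbered libraries, and at -0.21 to 0.22 for the others. With 3 libraries per group such values cannot decide whether the libraries were paired. Of the 45 list genes followed through 621 comparisons with other settings, 607 kept direction and call, 7 lost the call and 7 gained it. A window of 5 Mb around Axl held 32 lower and 9 higher of 172 tested genes. Together these were 23.8%, against 37.4% of all genes tested (18.3% lower and 19.1% higher). Low counts limit what can be said of Pthlh in AXL KO, of Foxp3 and of the platelet markers other than Itga2b and Pf4.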
